A study of Mus musculus with 20 samples.

Results

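Spon2, Tspan8 and Spon1 are 3 of the 26722 genes counted in mouse C2C12 myotubes treated with agrin or with antibodies to its receptor kinase MuSK. Spon2 and Tspan8 were chosen by their measured levels, because both had higher normalised counts in myotubes given agrin with the monovalent antibody 11-3F6xb12 than in those given agrin with the monovalent antibody 13-3B5xb12, compared between libraries of the same replicate number. Spon1 was added as the gene most closely related to Spon2, whatever its values. C2C12 is an established mouse myoblast line that fuses into multinucleate myotubes when serum is lowered. Here it was differentiated for 5 days and then treated for 16 hours, and total RNA was sequenced in 20 libraries, 4 for each of 5 treatments.

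All 5 treatments contained an antibody at 7.7 nM. The b12 group received b12 hIgG4, the negative control antibody, and no agrin. The 13-3B5 group received 13-3B5 hIgG4, an antibody that activates MuSK, and no agrin. In the Agrin_b12 group the control antibody was combined with 0.1 nM neural agrin, the natural activator. The Agrin_13-3B5xb12 and Agrin_11-3F6xb12 groups received the same agrin dose with 13-3B5xb12 or 11-3F6xb12, labelled as inhibiting MuSK antibodies that bind through a single arm. The labels do not say whether the replicates came from separate cultures, so p-values measure the spread between these libraries, which may be technical.

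MuSK is the muscle-specific receptor tyrosine kinase of the neuromuscular junction. Neural agrin, released by the motor nerve, binds the co-receptor Lrp4, and the complex activates MuSK and gathers acetylcholine receptors under the nerve ending. Spon2 encodes spondin 2, also called mindin, a secreted matrix protein with a thrombospondin type 1 repeat that binds integrins and is best known from innate immunity. Spon1 encodes F-spondin, a larger secreted protein with several such repeats, known from axon guidance in the floor plate of the spinal cord. Tspan8 encodes a tetraspanin, a membrane protein that crosses the membrane repeatedly, associates with integrins and is abundant on extracellular vesicles of epithelial and tumour cells.

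In the GENCODE M21 annotation of GRCm38, Spon2 (ENSMUSG00000037379) lies on chromosome 5 from 33198184 to 33218455 on the minus strand and has 2947 exonic bases. Tspan8 (ENSMUSG00000034127) lies on chromosome 10 from 115816832 to 115849893 on the plus strand and has 1702 exonic bases. Its span overlaps that of 4930422I22Rik, a gene on the opposite strand, and whether their exons overlap was not examined. The strand setting of the counting is not given in the sources used here. Reads from any shared stretch may thus not be told apart, and the Tspan8 values are uncertain to that extent. Spon1 (ENSMUSG00000038156) lies on chromosome 7 from 113765998 to 114043370 on the plus strand and has 10382 exonic bases. The counts cover whole genes and do not separate exons, introns or transcripts.

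Of the 3 genes, 1 had an entry in the RefSeq promoter table used here (GRCm38.p6). The 300 bases around the RefSeq start of Tspan8, chr10:115817034-115817333 on the plus strand, are shown because both genes moved together across libraries. That start, 115817284, differs from the GENCODE start of the gene, 115816832, and the window lies wholly inside the GENCODE span. Capitals mark the octamer ATGCAAAT, the motif bound by POU family factors.
Tspan8 promoter: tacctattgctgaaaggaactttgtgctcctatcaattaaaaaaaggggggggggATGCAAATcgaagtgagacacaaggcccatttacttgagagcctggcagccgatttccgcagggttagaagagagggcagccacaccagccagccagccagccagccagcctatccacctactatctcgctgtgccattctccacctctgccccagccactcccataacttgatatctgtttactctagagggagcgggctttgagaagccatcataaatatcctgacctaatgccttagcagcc
The octamer was looked for after the sequence had been seen. It begins at position -195 from the RefSeq start, which is downstream of the GENCODE start, and 1.74% of the 32851 promoters in the table hold it on either strand. No match was present in this window, on either strand, to the E-box CANNTG bound by myogenic bHLH factors, to the AP-1 motif TGANTCA, to the TATA box TATAAA or to the GC box GGGCGG. Of all promoters in the table, 72.3% hold the E-box, 7.81% the AP-1 motif, 13.6% the TATA box and 35.7% the GC box. A match or its absence describes letters in this window and not the binding of a factor.

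The libraries held 18424881 to 23343903 counts and 16261 to 18259 detected genes. All 15 myotube marker genes were measured well, at 12224 to 16927 CPM in sum per library, where CPM is a count divided by its library size after TMM scaling and put on a common scale. Transcripts of fibroblast-type genes were also abundant, at 4696 to 6158 CPM in sum for 10 genes, led by the collagen gene Col3a1 and the proteoglycan gene Dcn. Others of these 10 were low: Pdgfra, Lum, Dpt and Tcf7l2 averaged 16.7, 8.13, 2.15 and 1.23 CPM, and Thy1, with 29 counts in all 20 libraries, did not pass the filter on low counts. Of 4 epithelial markers in the table, Krt18 was at 0 in all 20 libraries and the sum reached at most 12.3 CPM. The libraries of replicates 1 and 2 separated from those of replicates 3 and 4 on the first principal component, at 7.36 to 14.3 against -19.3 to -8.16, a split that the labels do not name. Replicate 1 of Agrin_13-3B5xb12, with 16261 detected genes, and replicate 2 of b12 stood apart on the second component, at 30.6 and 20.8.

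Spon2 was measured in every library, with 272 to 711 counts. In b12 its level was 24.1, 20.3, 13.9 and 15.3 CPM in replicates 1 to 4, with a mean of 18.4 ± 4.68 (SD, n = 4). In 13-3B5 it was 24.3, 26.1, 15.6 and 17.0 CPM, with a mean of 20.7 ± 5.21 (SD, n = 4). In Agrin_b12 it was 25.0, 24.7, 19.2 and 14.2 CPM, with a mean of 20.8 ± 5.14 (SD, n = 4). These 3 groups covered nearly the same range, and within each of them replicates 1 and 2 lay above replicates 3 and 4.

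In Agrin_13-3B5xb12 the Spon2 level was 15.9, 20.3, 12.6 and 12.1 CPM, with a mean of 15.2 ± 3.80 (SD, n = 4). In Agrin_11-3F6xb12 it was 33.8, 35.2, 27.4 and 22.0 CPM, with a mean of 29.6 ± 6.08 (SD, n = 4). The lowest library of Agrin_11-3F6xb12 was above the highest of Agrin_13-3B5xb12, so these groups did not overlap. Across all tested genes, 1.44% were higher in Agrin_11-3F6xb12 without overlap. As this difference chose the gene, it is a description and nothing is read from it.

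Tspan8 was also measured in every library, with 287 to 963 counts, and spread more widely within each treatment. In b12 its level was 35.7, 30.7, 14.7 and 20.9 CPM, with a mean of 25.5 ± 9.45 (SD, n = 4). In 13-3B5 it was 30.6, 35.4, 18.1 and 22.2 CPM, with a mean of 26.6 ± 7.85 (SD, n = 4). In Agrin_b12 it was 40.2, 43.0, 20.6 and 19.6 CPM, with a mean of 30.9 ± 12.5 (SD, n = 4). The Agrin_b12 libraries formed a high pair and a low pair with no values between them.

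In Agrin_13-3B5xb12 the Tspan8 level was 27.0, 22.5, 13.4 and 18.5 CPM, with a mean of 20.4 ± 5.81 (SD, n = 4). In Agrin_11-3F6xb12 it was 41.9, 47.6, 32.2 and 21.4 CPM, with a mean of 35.8 ± 11.5 (SD, n = 4). The groups overlapped, because replicate 4 of Agrin_11-3F6xb12 lay below replicates 1 and 2 of Agrin_13-3B5xb12.

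**Figure D1:**
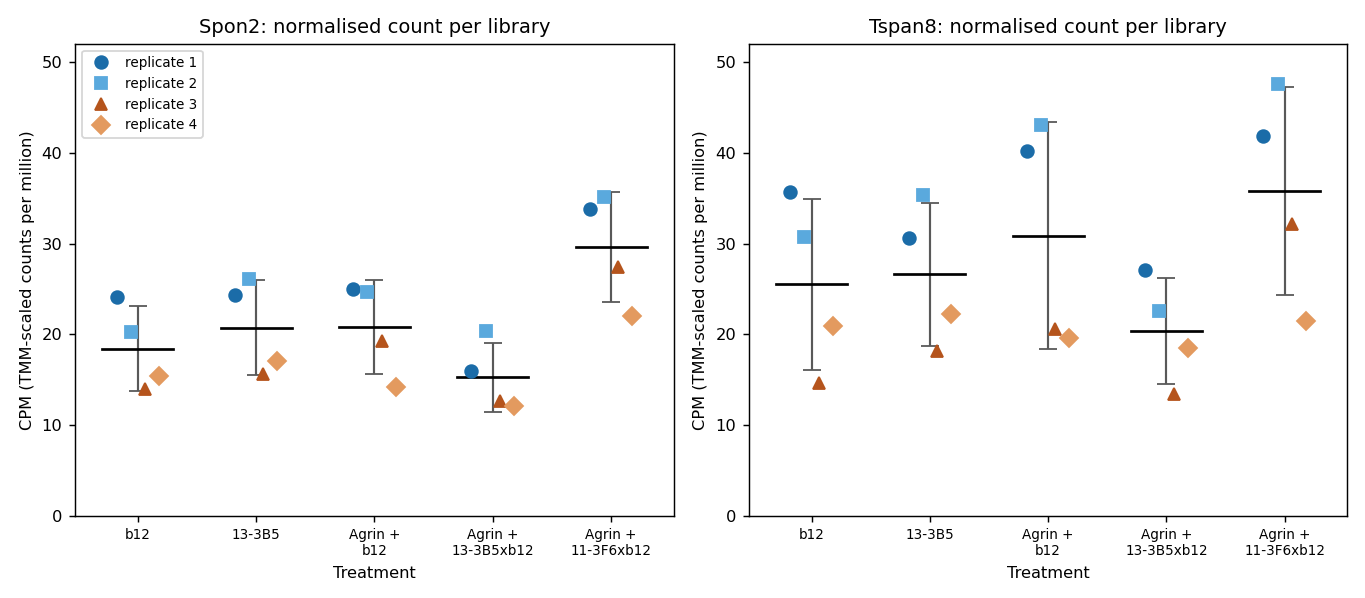
Level of Spon2 (left) and Tspan8 (right) in CPM for each of 20 libraries by treatment; points are libraries coloured by replicate number, the horizontal line is the group mean and the bar is 1 SD either side (n = 4). Replicates 1 and 2 (blue) lie above replicates 3 and 4 (orange) in every treatment, and the group means run from 15.2 to 29.6 CPM for Spon2 and from 20.4 to 35.8 CPM for Tspan8.

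The order of the 5 group means was the same for both genes. It ran from Agrin_13-3B5xb12 through b12, 13-3B5 and Agrin_b12 to Agrin_11-3F6xb12. Between neighbours in this order the ranges overlapped in all cases. For Spon2 the step from Agrin_b12 to Agrin_11-3F6xb12, at 8.80 CPM, was larger than the larger SD of the pair, 6.08 CPM. Each of the other 3 steps of Spon2 and all 4 steps of Tspan8 were smaller than the larger SD of their pair. These SDs include the difference between replicates 1 and 2 and replicates 3 and 4. For Tspan8 in Agrin_b12 the means of these parts were 41.6 and 20.1 CPM. A small step against the SD therefore does not show that same-numbered libraries were alike.

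The levels of both genes also differed between replicate numbers. Over all treatments Spon2 averaged 25.0 ± 5.86 CPM in replicates 1 and 2 and 16.9 ± 4.75 CPM in replicates 3 and 4 (SD, n = 10 each). Tspan8 averaged 35.5 ± 7.84 CPM in replicates 1 and 2 and 20.2 ± 5.10 CPM in replicates 3 and 4 (SD, n = 10 each). For both genes the pair of replicates 1 and 2 lay wholly above the pair of replicates 3 and 4 within 5 of 5 treatments, which held for 330 of 14605 tested genes, or 2.26%.

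The 3 comparisons among b12, 13-3B5 and Agrin_b12 did not enter the choice of genes. They ask what agrin or the activating antibody did to these genes without a monovalent antibody present. None of the 14605 genes tested was called in these comparisons by edgeR's quasi-likelihood test with Benjamini-Hochberg adjustment, a background of 0%. At an unadjusted p under 0.05 there were 416 genes for Agrin_b12 against b12, 404 for 13-3B5 against b12 and 349 for 13-3B5 against Agrin_b12, and DESeq2 likewise called 0 in each.

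With agrin, the log2 fold change of Spon2 against b12 was 0.17 ± 0.23 (SE), with a 95% interval from -0.32 to 0.66. That of Tspan8 was 0.27 ± 0.35 (SE), with a 95% interval from -0.48 to 1.03. The adjusted p from edgeR's quasi-likelihood test was 1.00 for both, and each gene was higher in 3 of 4 same-numbered pairs.

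With the activating antibody 13-3B5, the log2 fold change against b12 was 0.17 ± 0.23 (SE) for Spon2, with a 95% interval from -0.32 to 0.66, and 0.06 ± 0.36 (SE) for Tspan8, with a 95% interval from -0.70 to 0.82. The adjusted p from edgeR was 0.999 for both. Spon2 was higher in 4 of 4 same-numbered pairs and Tspan8 in 3 of 4, while 6.15% of all tested genes were higher in 4 of 4. Against Agrin_b12, the 13-3B5 group differed by 0.00 ± 0.23 (SE) for Spon2 and by -0.21 ± 0.35 (SE) for Tspan8, with an adjusted p of 1.00 for both in edgeR's test. The 95% intervals of these 2 differences ran from -0.49 to 0.48 and from -0.97 to 0.54.

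The 5 comparisons with a monovalent antibody group share at least 1 group with the choice of genes, so the values of Spon2 and Tspan8 in them are given without a test. Over all 14605 genes, edgeR called 0 (0%) in each of these, with 349 to 617 at an unadjusted p under 0.05. In the comparison that chose them, Agrin_11-3F6xb12 against Agrin_13-3B5xb12, the log2 fold change was 0.96 ± 0.23 (SE) for Spon2 and 0.81 ± 0.36 (SE) for Tspan8, or 1.95-fold and 1.76-fold. The ratio of Spon2 in replicates 1 to 4 was 2.12, 1.73, 2.17 and 1.82. The ratio of Tspan8 was 1.55, 2.11, 2.40 and 1.16. Spon2 was thus close to the same ratio in every number, and Tspan8 was not, with its smallest ratio in replicate 4. Of all tested genes, 7.07% were higher in 4 of 4 pairs.

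As the choice of genes used these values, the size of this difference in each part of the replicate split is a description. Fitted on replicates 1 and 2 alone, the log2 fold change was 0.92 for Spon2 and 0.84 for Tspan8, and on replicates 3 and 4 alone it was 1.00 and 0.75. For Tspan8 this last value covers unlike ratios, 2.40 in replicate 3 and 1.16 in replicate 4. Without the 2 libraries that stood apart the log2 fold change was 0.98 for both genes.

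Both monovalent groups lay on opposite sides of Agrin_b12, which they share as a comparator. The log2 fold change of Agrin_11-3F6xb12 against Agrin_b12 was 0.51 ± 0.23 (SE) for Spon2 and 0.21 ± 0.35 (SE) for Tspan8. For Spon2 the ratios in replicates 1 to 4 were 1.35, 1.42, 1.42 and 1.55. For Tspan8 they were 1.04, 1.11, 1.56 and 1.09. Both genes were higher in 4 of 4 pairs, as were 7.78% of all tested genes, but for Tspan8 most of the difference came from replicate 3.

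The log2 fold change of Agrin_13-3B5xb12 against Agrin_b12 was -0.45 ± 0.23 (SE) for Spon2 and -0.60 ± 0.36 (SE) for Tspan8. The ratios in replicates 1 to 4 were 0.637, 0.824, 0.655 and 0.852 for Spon2. They were 0.672, 0.524, 0.651 and 0.944 for Tspan8. Both genes were lower in 4 of 4 pairs, as were 5.79% of all tested genes. For Tspan8 the value moved from -0.74 on replicates 1 and 2 alone to -0.33 on replicates 3 and 4 alone.

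Against b12, which had neither agrin nor a MuSK antibody, Agrin_11-3F6xb12 differed by 0.68 ± 0.23 (SE) for Spon2 and 0.49 ± 0.35 (SE) for Tspan8 on the log2 scale. Both were higher in 4 of 4 same-numbered pairs, with ratios from 1.40 to 1.97 for Spon2 and from 1.02 to 2.19 for Tspan8. Of all tested genes, 6.53% were higher in 4 of 4 pairs. Agrin_13-3B5xb12 differed from b12 by -0.28 ± 0.23 (SE) for Spon2 and -0.33 ± 0.36 (SE) for Tspan8. Spon2 was lower in 3 of 4 pairs, with ratios from 0.661 to 1.00, and Tspan8 was lower in 4 of 4, with ratios from 0.735 to 0.913, as were 5.19% of all tested genes.

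**Figure D2:**
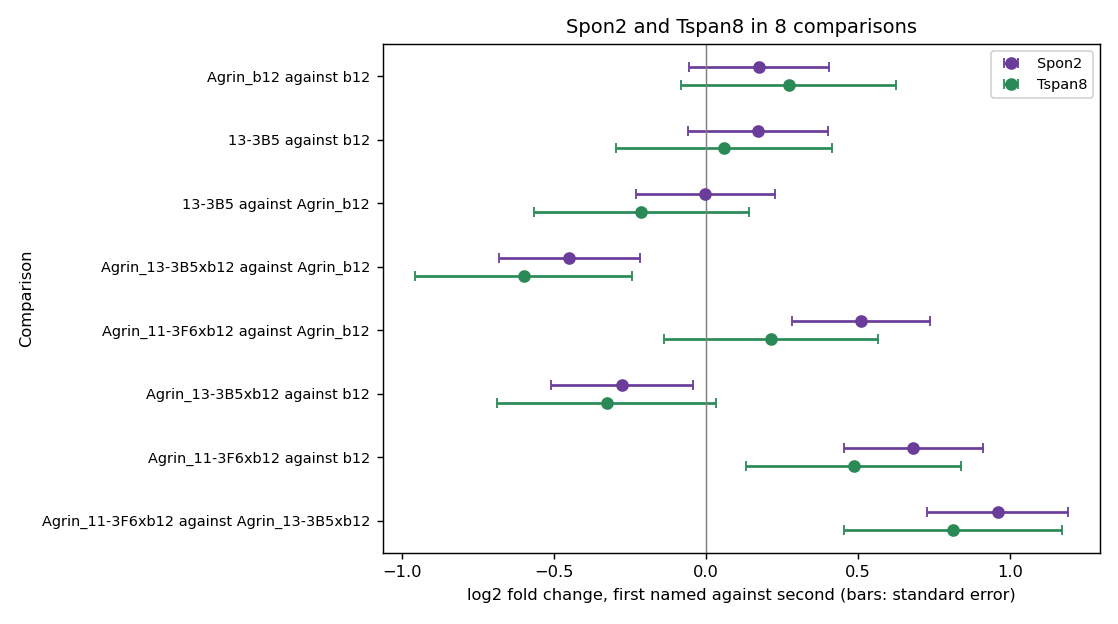
Log2 fold change of Spon2 (purple) and Tspan8 (green) in 8 comparisons from the edgeR model over 20 libraries; points are estimates and bars are 1 standard error. The 3 comparisons at the top did not enter the choice of genes and lie between -0.21 and 0.27, and the comparison at the bottom, at 0.96 and 0.81, is the one that chose them.

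The share of mitochondrial transcripts in all counts was 31.8% to 39.1% in Agrin_11-3F6xb12, 29.8% to 34.9% in Agrin_13-3B5xb12, 27.9% to 34.4% in Agrin_b12, 28.9% to 34.7% in b12 and 29.6% to 37.2% in 13-3B5. Within replicate numbers it was higher in Agrin_11-3F6xb12 than in Agrin_13-3B5xb12 in 4 of 4, as both genes were. It was also higher in Agrin_13-3B5xb12 than in Agrin_b12 in 4 of 4, where Spon2 and Tspan8 were lower in 4 of 4. The share was highest in Agrin_11-3F6xb12 in replicates 1, 2 and 3, and highest in b12 in replicate 4. In every treatment but b12, replicates 1 and 2 had a higher share than replicates 3 and 4, as they had higher levels of both genes. In b12, replicate 2, at 30.2%, lay below replicate 4, at 32.5%. In a further fit every gene above 1% of a library's counts was dropped before scaling. The difference between the monovalent groups was then 0.96 for Spon2 and 0.81 for Tspan8 on the log2 scale, the same as with those genes kept. TMM scaling trims genes of extreme level or ratio in any case, so the step could hardly move these values. The comparison also chose both genes, so the result is a description. The summed fibroblast-type genes ranged from 5180 to 5960 CPM in Agrin_11-3F6xb12 and from 5125 to 6158 CPM in Agrin_13-3B5xb12, and the summed myotube markers from 12916 to 16249 and from 12224 to 16624 CPM. The part of the mitochondrial share and that of the cell mixture in the result were not tested. In such bulk samples, fewer cells of a type and less RNA per cell cannot be told apart.

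Spon1 was barely detected, in contrast to Spon2. Its counts in b12 were 1, 9, 4 and 0 in replicates 1 to 4, and in Agrin_b12 they were 2, 0, 0 and 0. The other 12 libraries, which include every library with a MuSK antibody, had 0 counts. With 16 counts in all it did not pass the filter on low counts, so it could be tested only in a fit of all 26190 genes with any count. Per kilobase of exon over all 20 libraries, Spon2 averaged 7.11 CPM and Spon1 0.00367 CPM.

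The b12 libraries held 14 Spon1 counts in sum, with an exact Poisson 95% interval from 7.65 to 23.5. A count of 0 allows up to 3 counts per group, so, with the 14 counts taken as they stand, the summed b12 level was at least 4.93-fold higher than in 13-3B5, at least 4.82-fold higher than in Agrin_13-3B5xb12 and at least 4.81-fold higher than in Agrin_11-3F6xb12. Over Agrin_b12, with 2 counts, the ratio was 7.57 with an exact 95% counting interval from 1.74 to 68.7. With the lower limit of the b12 count in place of the 14, the 3 bounds were 2.695, 2.637 and 2.632. Of the 14 counts, 9 came from replicate 2 of b12, a library that stood apart from the rest. Without it the b12 sum was 5 counts and the bounds were 2.37, 2.31 and 2.31. Both recalculations were chosen after seeing the data, and bounds and intervals cover counting error only. Between libraries the difference did not pass the test. The adjusted p from edgeR was 0.897 for 13-3B5, 0.949 for Agrin_13-3B5xb12, 0.895 for Agrin_11-3F6xb12 and 0.906 for Agrin_b12, each against b12. The unadjusted values were 0.0279, 0.0285, 0.0285 and 0.233. In the comparison of the monovalent groups, both at 0, no difference in Spon1 was detectable at this depth.

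Spon2 and Tspan8 varied together from library to library. In the 12 libraries of b12, 13-3B5 and Agrin_b12, which the choice of genes did not use, the log2 levels had a Pearson r of 0.932 (permutation p = 4e-05, adjusted 0.00012 over 3 gene pairs) and a Spearman rho of 0.874 (permutation p = 0.00046). Without the 2 libraries farthest from the median of Spon2, r was 0.913. After the treatment mean was subtracted, a step that keeps the replicate split, it was 0.941. Within the 6 of these libraries from replicates 1 and 2, r was 0.553 (exact permutation p = 0.283), and within the 6 from replicates 3 and 4 it was 0.613 (exact permutation p = 0.139). The relation therefore did not pass the test inside either part of the replicate split, where the range of values was narrower. The permutations over 12 libraries did not keep the split, in which both genes were higher in replicates 1 and 2. Their small p-values therefore include that shared difference and do not show a relation apart from it. Over all 20 libraries r was 0.893, given as a description. Spon1, at 0 in 8 of the 12 libraries, had r of -0.04 with Spon2 and 0.01 with Tspan8 (permutation p = 0.889 and 0.985, both adjusted to 0.985).

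**Figure D3:**
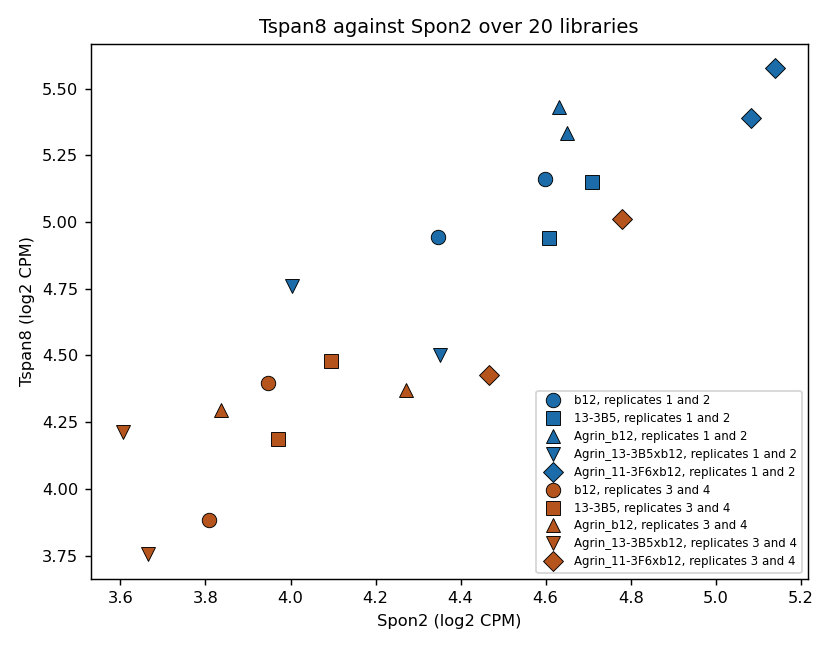
Tspan8 against Spon2 in log2 CPM, 1 point per library (20 libraries), with symbols for the 5 treatments, blue for replicates 1 and 2 and orange for replicates 3 and 4. The points lie along one diagonal (r = 0.893), with blue mostly above orange, and the Agrin_11-3F6xb12 diamonds are farthest right within each colour.

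The genes whose level across all 20 libraries was most like that of Spon2, among 11148 genes, were Ogn (r = 0.974), Tspan8 (0.893), Lrrc17 (0.879), Aspn (0.866) and Ostm1 (0.858). These correlations share libraries and the replicate split and carry no test. Ogn encodes osteoglycin and Aspn asporin, both small leucine-rich proteoglycans of the extracellular matrix, and the genes lie near each other on the plus strand of chromosome 13, from 49608046 to 49624501 and from 49544443 to 49567565. The likeness of Ogn to Spon2 was as high within the split, at 0.957 over the 10 libraries of replicates 1 and 2 and 0.963 over the 10 of replicates 3 and 4. For Ostm1, a lysosomal membrane protein gene, it was 0.942 and 0.572 in the same sets. The spans of Ogn and Aspn both overlap Cenpp on the opposite strand, that of Lrrc17 overlaps Fbxl13 and that of Ostm1 overlaps Gm15200. Whether exons overlap was not examined, so their counts carry the same uncertainty about strand as Tspan8.

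The Ogn level ordered the libraries much as Spon2 did. It was 591, 707, 512 and 453 CPM in replicates 1 to 4 of Agrin_11-3F6xb12, and 329, 371, 277 and 278 CPM in those of Agrin_13-3B5xb12. The groups did not overlap, and 1.44% of all tested genes were higher in Agrin_11-3F6xb12 without overlap. The means in b12, 13-3B5 and Agrin_b12 were 364 ± 75.7, 405 ± 80.5 and 379 ± 82.8 CPM (SD, n = 4 each). The log2 fold change between the monovalent groups was 0.85 ± 0.20 (SE) for Ogn and 1.07 ± 0.38 (SE) for Aspn. As both were picked for their likeness to Spon2, these are descriptions.

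The genes most like Tspan8 were Stk17b (r = 0.905), Mrln (0.901), Ostm1 (0.901), Rab27b (0.898) and Cilp (0.896), and Spon2 came next at 0.893. Mrln encodes myoregulin, a micropeptide that inhibits the calcium pump of the sarcoplasmic reticulum, Stk17b a serine/threonine kinase, Rab27b a small GTPase of vesicle release, and Cilp a cartilage matrix protein that itself has a thrombospondin repeat. In replicates 1 and 2 alone the correlation was 0.811 for Stk17b, 0.893 for Mrln, 0.853 for Rab27b and 0.752 for Cilp, against 0.803 for Spon2. In replicates 3 and 4 alone it was 0.713, 0.544, 0.558 and 0.641 in the same order, against 0.830 for Spon2. The order thus differed between the parts of the split. Both sets hold the monovalent groups, whose difference chose Spon2 and Tspan8. The span of Rab27b overlaps a gene on the opposite strand.

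Among 28 tetraspanin genes in the table, Tspan8 ranked 12 by mean level per kilobase of exon, at 16.3 CPM per kilobase. The highest were Cd81 (131), Cd9 (70.5) and Cd63 (66.4). Cd9 and Cd81 are known for their part in myoblast fusion, and Cd63 is a marker of late endosomes and exosomes. The highest library was above the lowest by 1.19-fold for Cd81, 1.61-fold for Cd9 and 1.36-fold for Cd63, against 3.55-fold for Tspan8. Some tetraspanin genes at lower levels ranged more widely than Tspan8, up to 5.62-fold where no library was at 0. Of the 28 genes, 24 passed the filter, and edgeR called 0 of them in any of the 8 comparisons. Of the 23 other than Tspan8, 0 to 3 had an unadjusted p under 0.05 in a comparison (0% to 13.0%), against 2.39% to 4.22% of all 14605 genes. Over the 24 tetraspanin genes, with Tspan8 among them, the median log2 fold change between the monovalent groups was 0.04. That of all 14605 genes was 0.00.

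Among 41 genes whose proteins carry thrombospondin type 1 repeats, Spon2 ranked 12 per kilobase of exon and Spon1 ranked 38. The highest were Thbs1 (167 CPM per kilobase), the gene of thrombospondin 1, and Ccn4 (47.4) and Ccn1 (35.4), which encode matricellular proteins. The highest library was above the lowest by 1.74-fold for Thbs1, 1.28-fold for Ccn4 and 1.82-fold for Ccn1, against 2.91-fold for Spon2. A range wider than that of Spon2 was not particular to it. Cilp, at a mean of 94.0 CPM, ranged 8.23-fold, and members at lower levels reached up to 20.6-fold where no library was at 0. Of the 41 genes, 31 passed the filter and 0 were called by edgeR in any comparison, and 0 to 2 of the 30 other than Spon2 had an unadjusted p under 0.05 (0% to 6.67%), against the same 2.39% to 4.22% of all genes. Over the 31 genes, with Spon2 among them, the median log2 fold change between the monovalent groups was 0.01. DESeq2 called 0 genes in the other 7 comparisons and 2 in that one, of which 1, Omd, was not chosen by it. Omd, which falls outside the lists, encodes osteomodulin, another small leucine-rich proteoglycan, and was higher in Agrin_11-3F6xb12 by 1.62 ± 0.32 (SE) on the log2 scale in DESeq2's fit.

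**Figure D4:**
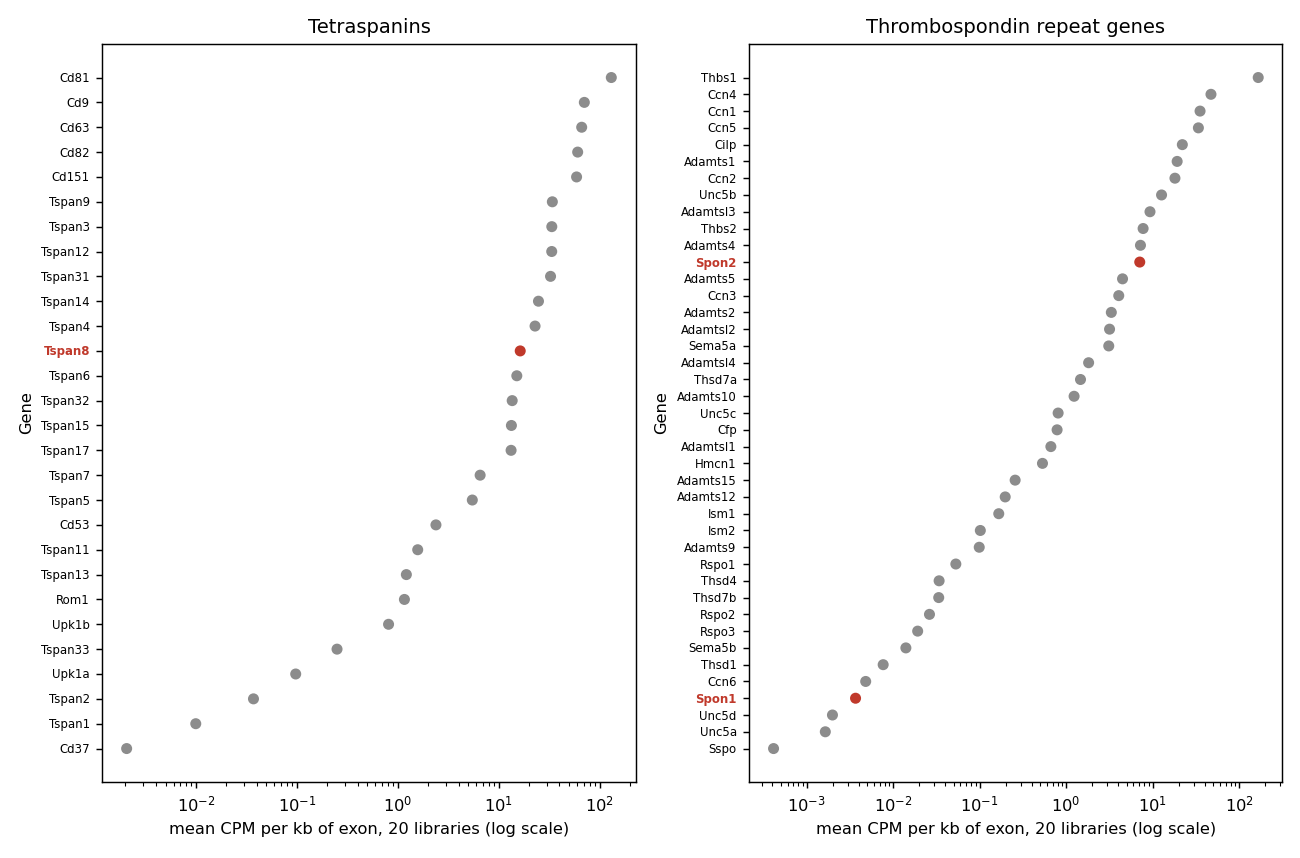
Mean level per kilobase of exon over 20 libraries (log scale) of tetraspanin genes (left, 28 genes) and genes with thrombospondin type 1 repeats (right, 41 genes), with Tspan8, Spon2 and Spon1 in red. Tspan8 and Spon2 each rank 12 in their family and Spon1 ranks 38 of 41.

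The known partners of these proteins were measured too. Of 25 integrin genes in the table, which encode the receptors that spondin 2 binds and with which tetraspanins associate, 19 passed the filter and edgeR called 0 in any comparison, with 0 to 2 at an unadjusted p under 0.05 (0% to 10.53%, against 2.39% to 4.22% of all genes). Their summed level ranged from 3319 to 3495 CPM in Agrin_11-3F6xb12 and from 3275 to 3528 CPM in Agrin_13-3B5xb12. Of 8 genes for proteins that F-spondin binds or that belong to the same families, among them App and the agrin receptor Lrp4, 7 passed and 0 were called by edgeR, with 0 to 1 at an unadjusted p under 0.05 (0% to 14.3%). The median log2 fold change of the integrins between the monovalent groups was 0.05 and that of the F-spondin partners was -0.04.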

How the data were processed

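Total RNA of C2C12 myotubes was sequenced after ribosomal RNA removal with a stranded kit (TruSeq Stranded Total RNA with Ribo-Zero), per the labels' protocols. The deposited table holds raw counts, 1 whole number per gene and library, for 26722 genes. Per the submitters' processing notes, which give no roles, GRCm38, Trim Galore 0.6.6, cutadapt 2.10, STAR 2.7.6a, HTSeq 0.12.4 and DESeq2 1.32.0 were used. The annotation release and strand setting are not given in the sources used here. Groups and replicate numbers came from the sample titles.

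The model was fitted to the counts with edgeR 4.0.16 (R 4.3.3): filterByExpr (minimum count 10, total 15; 14605 genes kept), TMM scaling, and 1 robust quasi-likelihood model over 20 libraries with treatment as the only term (15 residual degrees of freedom). Tests were two-sided, with Benjamini-Hochberg adjustment over all genes and a threshold of 0.05. Spon1 failed the filter, so its planned test was run in the fit without a filter. CPM used effective library sizes, and log2 CPM a prior count of 2. Total counts were 18424881 to 23343903 per library, and 3 counts, the limit that 0 counts allow, correspond to 0.125 to 0.161 CPM. Replicates differed by more than sampling noise, with a chi-square per gene of at least 5.17. The code was tested on simulated data.

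Named genes were the 3 members, the 5 genes with the highest Pearson r with each of Spon2 and Tspan8 (mean log2 CPM above 1; Spon1 was too low), the 3 highest per kilobase in the tetraspanin and thrombospondin repeat lists, and list members called in any comparison with or without a replicate term; Omd, Hp and mt-Nd1 were named after their values were seen. The members, lists and replicate split were chosen with earlier results of these data known. Correlations used 100000 permutations, or all of them for 6 libraries (scipy 1.17.1). Alternatives were DESeq2 1.42.0 (size factors, Wald test), other filters, a replicate term, the compared groups alone, dominant genes removed, and libraries left out. Of the marker lists (myotube, fibroblast, epithelial, satellite cell, dividing cell, immune and liver), edgeR called 0 members in any comparison. Per list, 0 to 3 tested members had an unadjusted p under 0.05 in edgeR, or 0% to 42.9%, against 2.39% to 4.22% of all genes. The 42.9% was 3 of 7 satellite cell markers in Agrin_11-3F6xb12 against b12. For fibroblast markers it was 2 of 9 (22.2%) in each comparison of Agrin_11-3F6xb12 with Agrin_b12, b12 and Agrin_13-3B5xb12. The highest sums per library of the satellite cell, dividing cell, immune and liver lists were 431, 251, 1.86 and 14.3 CPM, the latter in 1 Agrin_b12 library.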

Additional observations from a re-analysis of the deposited data

Results flagged for a closer look

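Spon1 in Agrin_b12 was detected in replicate 1 alone, at 0.0909 CPM from 2 counts, with 0 in replicates 2, 3 and 4. Dixon's test at 95% marks that library as far from the others, as it would any single count beside 3 values of 0. The test was run on 12 groups of 4 libraries for the 3 genes, of which chance marks about 1 in 20. None of the 10 groups of Spon2 and Tspan8 values held such a library.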

How the results depend on the processing

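All settings here were planned, except those of Spon1 and the gene set of higher level used to check the replicate numbers. The 10 log2 fold changes of Spon2 and Tspan8 in comparisons with a monovalent antibody group kept their sign in 230 of 230 recomputations. Each of these comparisons holds a group that the choice of genes used, so the count is a description and no test. Between the monovalent groups, leaving out libraries gave 0.86 to 1.13 for Spon2 and 0.64 to 1.00 for Tspan8. Of 138 recomputations in the other 3 comparisons, 13 changed sign, from 0.00 for Spon2 in 13-3B5 against Agrin_b12, 0.06 for Tspan8 in 13-3B5 against b12 and -0.21 for Tspan8 in 13-3B5 against Agrin_b12. For 13-3B5 against Agrin_b12, replicates 1 and 2 alone gave 0.014 for Spon2 and replicates 3 and 4 alone gave 0.0077 for Tspan8, and leaving out libraries gave -0.15 to 0.11 for Spon2 (with the block, 0.012 without replicate 1 and 0.092 without replicate 3). For 13-3B5 against b12, replicates 1 and 2 alone gave -0.014 for Tspan8, and leaving out libraries gave -0.13 to 0.26.

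The replicate numbers were not taken as pairing, for which all correlations of same-numbered deviations from the group mean had to be over 0.1. They were in 4 of 8 comparisons over the 11149 genes of higher level, and in 0 over all 14605. Over the former they ranged from 0.01 to 0.38, and a library correlated best with its own number in 19 of 32 cases. These cases are 4 libraries in each of 8 comparisons, so the same libraries recur. The first gene set was chosen after the outcome of the second had been seen. With the replicate block, edgeR called 2 genes for Agrin_11-3F6xb12 against Agrin_b12 (Ogn and mt-Nd1, 0.0137%), 3 against b12 (0.0205%, with Aspn and Ogn) and 5 against Agrin_13-3B5xb12 (0.0342%, with Aspn, Ogn and Hp), where no block gave 0. The others are the chosen genes, whose calls there are no test. In the gene lists the block gave no other call. For Agrin_b12 against b12 it gave 0.26 ± 0.13 (SE) for Tspan8, with an edgeR adjusted p of 1.00. Leaving out a replicate number with the block gave 1 to 2, 1 to 3 and 3 to 8, and 0 to 1 for Agrin_13-3B5xb12 against b12. In the block the log2 fold changes between the monovalent groups were 0.96 ± 0.11 (SE) and 0.81 ± 0.13 (SE).

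Without a filter, the counts of genes called were 4 (Agrin_b12 against b12), 2 (13-3B5 against b12), 7 (13-3B5 against Agrin_b12), 6 and 3 (Agrin_13-3B5xb12 against Agrin_b12 and b12), and 13, 13 and 27 (Agrin_11-3F6xb12 against Agrin_b12, b12 and Agrin_13-3B5xb12). With the block and without the 2 libraries that stood apart they were 1 and 1 for Agrin_13-3B5xb12 and 17, 5 and 16 for Agrin_11-3F6xb12, in the same orders. DESeq2 called 2 between the monovalent groups. Replicates 1 and 2 alone gave 1 for Agrin_11-3F6xb12 against Agrin_b12 and 6 against Agrin_13-3B5xb12, and replicates 3 and 4 alone gave 9, 5 and 7 for Agrin_11-3F6xb12 and 1 for Agrin_13-3B5xb12 against b12. The cause was not tested. The correlation of Spon2 with Tspan8 was 0.553 within replicates 1 and 2 and 0.613 within replicates 3 and 4. Leaving out each b12 library in turn, chosen after seeing the data, moved the bound of Spon1 over 13-3B5 to 2.37 to 6.69. Depth limits Spon1 alone among the 3 genes.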
